A study of Mus musculus with 12 samples.

Results

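The histone deacetylase genes other than Hdac3 were followed in mouse bone marrow-derived macrophages that lack Hdac3 or keep 1 allele of it. The genes were chosen by symbol: Hdac1, Hdac2 and Hdac4 to Hdac11, which are 10 of the 19945 genes tested. They were read by 12 of the 28193 probe sets on the array, since Hdac1 and Hdac4 have 2 each. RNA came from 12 cultures of C57BL/6 marrow on the 7th day of differentiation in L929-conditioned medium, and each culture was measured on 1 single-colour Affymetrix array. The 4 groups of 3 arrays were Hdac3 -/- cells stimulated for 4 h with lipopolysaccharide (LPS, an outer membrane component of bacteria) at 100 ng/ml, untreated Hdac3 -/- cells, Hdac3 +/- cells given the same LPS, and untreated Hdac3 +/- cells. The submitters label the +/- cells wild type, although they carry a single allele, so no group here has both. The sources used here do not give how the alleles were deleted, or whether the 3 cultures of a group came from separate animals. The p-values therefore rest on the spread between arrays, which may be technical in part or, in -/- cells, as a whole. In each +/- group sex-linked genes set replicate 1 apart (below), so those cultures did not all come from 1 animal.

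Histone deacetylases remove acetyl groups from lysines of histones and of many other proteins, and those named here use zinc. Class I enzymes such as Hdac1 and Hdac2 are nuclear and work inside corepressor complexes (Sin3, NuRD, CoREST and MiDAC), as Hdac3 does in the NCoR complex, while Hdac8 acts without such a complex. Class IIa members (Hdac4, Hdac5, Hdac7 and Hdac9) have little deacetylase activity of their own, bind MEF2 transcription factors, and leave the nucleus when kinases phosphorylate them. Class IIb holds Hdac6, which deacetylates tubulin in the cytoplasm, and Hdac10, a polyamine deacetylase. Hdac11 is the only class IV member.

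Values are log2 signals, which the authors had normalized and summarised per probe set by RMA. Signals of different probe sets cannot be set against each other, so each gene is compared with itself across groups. Differences are log2 differences ± 1 SE of a limma model over all 12 arrays (n = 3 arrays per group), and a gene was called where its Benjamini-Hochberg adjusted p over all genes was under 0.05. Array medians ran between 5.19 and 5.37 on the log2 scale, and precision is limited by having 12 arrays. The interquartile range of signals was 3.5, 3.2 and 3.2 on LPS-treated and 3.7, 3.5 and 3.8 on untreated +/- arrays. On -/- arrays it was 3.5, 3.4 and 3.7 with LPS and 3.7, 3.7 and 3.6 untreated. After quantile normalization, 5 of the 10 genes were called for LPS in +/- cells, and 4557 of all genes in place of 4997. Hdac3 itself had 6.91, 7.25 and 7.18 in LPS-treated and 7.39, 7.52 and 7.39 in untreated -/- arrays, against 8.90, 9.02 and 8.66 in LPS-treated and 9.42, 9.10 and 8.98 in untreated +/- arrays. Each of 5 LPS-response genes (Tnf, Il1b, Il6, Ptgs2 and Nos2) rose with LPS in both genotypes. All 8 measured macrophage markers, among them Adgre1 and Csf1r, lay above the array median on every array. Arrays of replicate 1 in both +/- groups stood apart in sex-linked genes. Their Xist signal was 3.20 with LPS and 3.93 untreated, against 9.67 to 10.97 on the other 10 arrays, and their Y-linked Eif2s3y, Kdm5d and Uty were high (6.14 to 7.93, against 2.20 to 3.57 elsewhere). By these genes the +/- replicate 1 cells look male and those of all other arrays female. Sex and genotype therefore coincide in part, since no -/- array looks male. Results that turn on the +/- replicate 1 arrays are given without them as well.

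LPS lowered 5 of the 10 deacetylase genes in Hdac3 +/- macrophages and raised 1. Hdac5, Hdac8, Hdac6, Hdac4 and Hdac10 fell and Hdac1 rose. The share called over all genes was 25.1%, with 15.5% lower and 9.59% higher. That share includes dim genes, while 9 of the 10 members pass a filter on dim signal (above the median on 3 or more arrays). Of the 11485 genes kept by the filter, 4631 were called, and 6 of the 9 members. LPS-treated and untreated arrays did not overlap for the same 6 genes, against 36.7% of all genes. The median difference of the 10 genes was -0.42, against 0.08 over all genes tested, dim ones included. In Hdac3 -/- macrophages Hdac5 alone was called, and it fell, where 8.87% of all genes were called, 5.18% lower and 3.69% higher. With dim genes left out, 1935 of 11485 genes were called there, and 1 of the 9 members kept. The -/- arrays did not overlap for 4 of the 10 genes (Hdac4, Hdac5, Hdac6 and Hdac10), against 28.3% of all genes. With array weights in the limma model, Hdac4 (-0.51), Hdac6 (-0.44), Hdac8 (-0.37) and Hdac10 (-0.45) were called as well in -/- cells, making 5 of the 10, and the count over all genes was 4424 in place of 1769. The median of the 10 genes there was -0.17, against 0.02 over all genes. Since each value is for a whole culture, fewer cells of a type and less RNA per cell cannot be told apart.

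**Figure D1:**
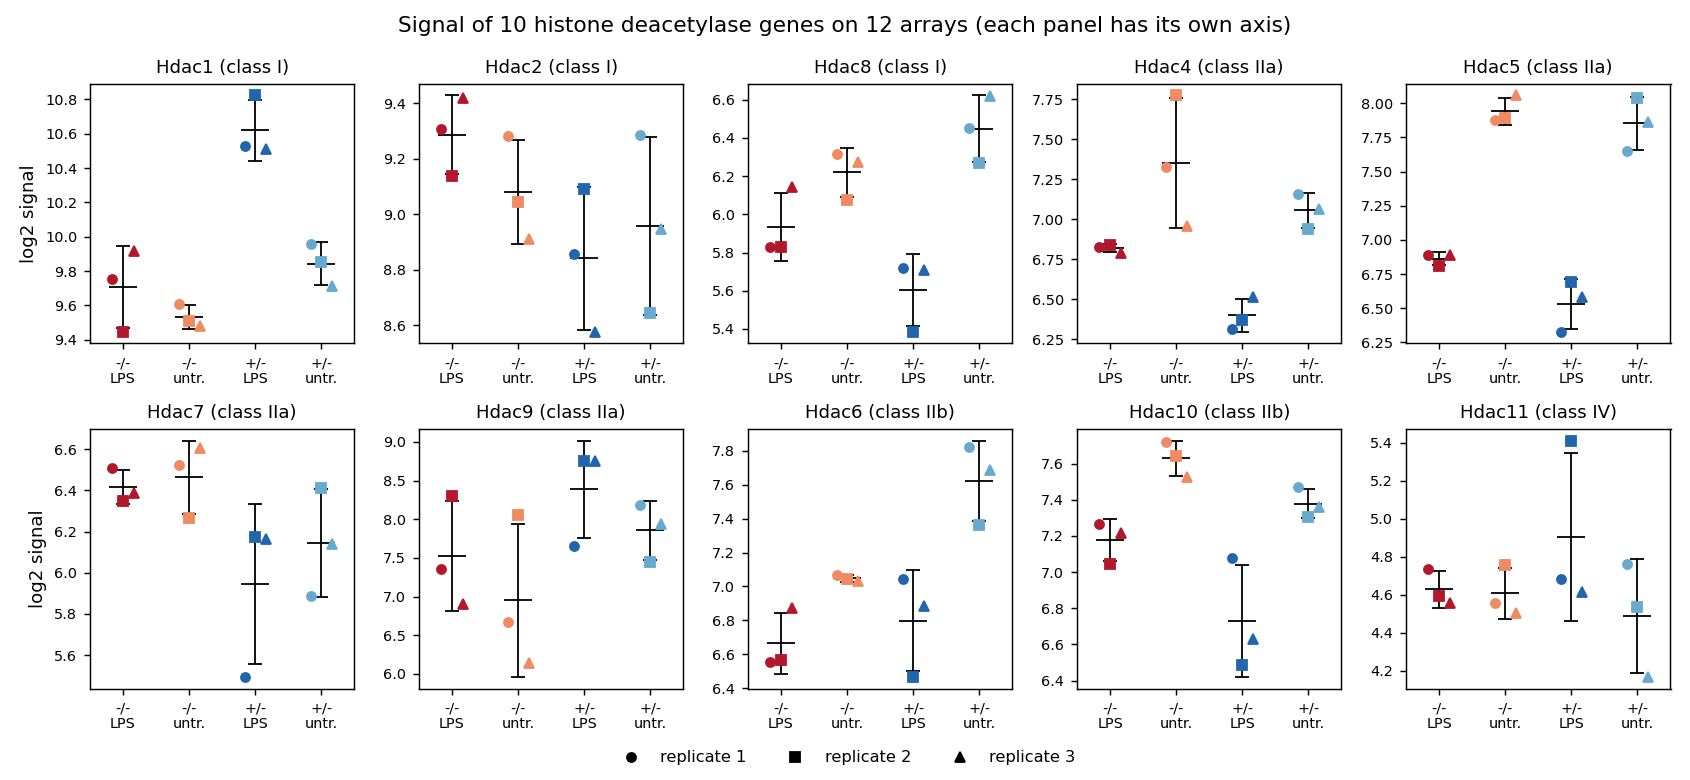
Log2 signal of each of the 10 genes (vertical axes, a separate scale per panel) on the 12 arrays, in 4 groups from left to right: LPS-treated -/-, untreated -/-, LPS-treated +/- and untreated +/-. Points are arrays, with a marker shape for each replicate number, long ticks are group means and bars are ± 1 SD (n = 3). The LPS-treated +/- arrays of Hdac1 lie above all other arrays, and both LPS-treated groups of Hdac5 lie below both untreated groups.

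Among class I genes, Hdac1 set the LPS-treated +/- cells apart from every other group. Its log2 signal was 9.76, 9.45 and 9.92 in LPS-treated and 9.61, 9.51 and 9.48 in untreated -/- arrays, and 10.53, 10.82 and 10.51 in LPS-treated and 9.96, 9.86 and 9.71 in untreated +/- arrays. The LPS-treated +/- arrays did not overlap any other group, whereas the LPS-treated -/- arrays overlapped both untreated groups. LPS raised Hdac1 by 0.78 ± 0.147 in +/- cells (1.72-fold, adjusted p = 0.00158 by limma). Its LPS difference in -/- cells was 0.17 ± 0.147 (adjusted p = 0.608). The difference between these 2 responses was -0.60 ± 0.208, which was not called (adjusted p = 0.231).

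After LPS, Hdac1 was lower in Hdac3 -/- than in +/- cells, by 0.91 on the log2 scale (SE 0.147, 1.88-fold, adjusted p = 0.000917 by limma). It was the only one of the 10 genes called in that comparison, in which 15.7% of all genes were called, 9.69% higher and 5.99% lower. With dim genes left out, 3175 of 11485 genes were called. Without LPS the untreated -/- arrays also lay below the untreated +/- arrays, but the Hdac1 difference of -0.31 ± 0.147 was not called (adjusted p = 0.41). In order of group means, only the step between LPS-treated and untreated +/- cells was free of overlap. Untreated +/-, LPS-treated -/- and untreated -/- cells followed, each overlapping the next.

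The second Hdac1 probe set gave the same order of groups. Probe set 10447004 read 9.12, 8.79 and 9.47 in LPS-treated and 8.94, 8.67 and 8.76 in untreated -/- arrays, and 9.91, 10.40 and 10.07 in LPS-treated and 9.59, 9.33 and 9.23 in untreated +/- arrays. Its LPS difference in +/- cells was 0.74 ± 0.185 (adjusted p = 0.0122 over all probe sets), and its -/- minus +/- difference after LPS was -1.0001 ± 0.185 (adjusted p = 0.00314 by limma). It correlated with the probe set used, 10516605, at r = 0.98 over the 12 arrays, as a description of 2 readings of the same RNA. The annotation gives both to Hdac1 on chromosome 4. However, the neighbours of 10447004 in probe set number, Crim1 and Vit, are genes of chromosome 17, and RefSeq (GRCm38.p6) places the pseudogene Hdac1-ps between them. Of neighbouring probe sets, 94.8% belong to genes of the same chromosome. Which of Hdac1 and its copy each probe set reads was not tested.

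**Figure D2:**
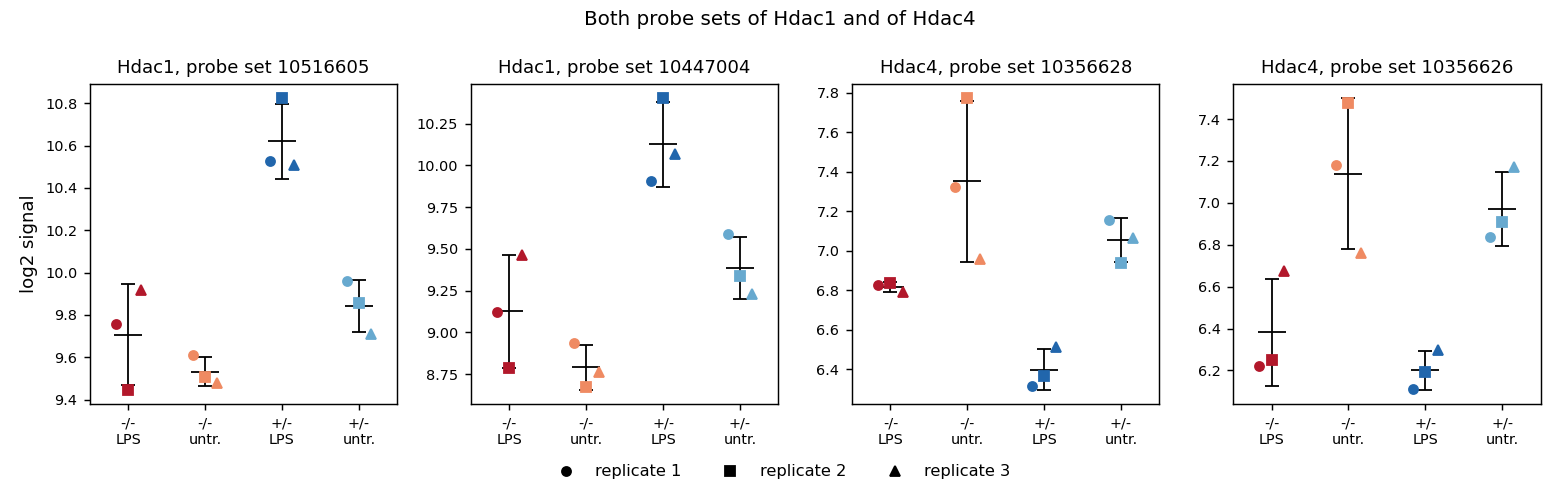
Log2 signal (vertical axes, separate scales) of both probe sets of Hdac1 (left pair) and Hdac4 (right pair) in LPS-treated -/-, untreated -/-, LPS-treated +/- and untreated +/- arrays. Points are arrays, ticks are means and bars are ± 1 SD (n = 3). Both Hdac1 probe sets are highest in the LPS-treated +/- arrays, and both Hdac4 probe sets are lower with LPS in both genotypes.

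Hdac2, the close relative of Hdac1 in the same complexes, did not follow it. Its signal was 9.31, 9.14 and 9.42 in LPS-treated and 9.28, 9.05 and 8.91 in untreated -/- arrays, and 8.86, 9.09 and 8.58 in LPS-treated and 9.29, 8.64 and 8.95 in untreated +/- arrays. The LPS differences were 0.21 ± 0.182 in -/- and -0.12 ± 0.182 in +/- cells (95% intervals -0.18 to 0.60 and -0.51 to 0.28). After LPS the -/- arrays of Hdac2 all lay above the +/- arrays, by 0.45 ± 0.182 on average, opposite in sign to Hdac1, but the difference was not called (adjusted p = 0.12 by limma).

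Hdac8, a class I enzyme known for deacetylating the cohesin subunit Smc3, fell with LPS in +/- cells. It read 5.83, 5.83 and 6.14 in LPS-treated and 6.31, 6.07 and 6.27 in untreated -/- arrays, against 5.72, 5.39 and 5.71 in LPS-treated and 6.45, 6.27 and 6.62 in untreated +/- arrays. The groups did not overlap in +/- cells, where the difference was -0.84 ± 0.149 (1.79-fold, adjusted p = 0.000974 by limma). They overlapped in -/- cells, at -0.29 ± 0.149 (adjusted p = 0.32), and the difference of the responses, 0.56 ± 0.211, was not called (adjusted p = 0.291). Smc3 fell as well, by 1.61 in +/- cells (SE 0.190, adjusted p = 3.92e-05 by limma) and by 0.87 in -/- cells (adjusted p = 0.01). Hdac8 lies on the X chromosome. Without both +/- replicate 1 arrays its LPS difference in +/- cells was -0.90 (adjusted p = 0.00542).

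Among class IIa genes, Hdac5 had the clearest LPS response and the only one called in both genotypes. Its signal was 6.89, 6.81 and 6.89 in LPS-treated and 7.88, 7.89 and 8.06 in untreated -/- arrays, and 6.33, 6.69 and 6.58 in LPS-treated and 7.65, 8.04 and 7.87 in untreated +/- arrays. Every LPS-treated array lay below every untreated array. Hdac5 fell by 1.08 (SE 0.139, 2.12-fold, adjusted p = 0.000196 by limma) in -/- cells and by 1.32 (SE 0.139, 2.50-fold, adjusted p = 1.41e-05) in +/- cells. The difference between the responses was 0.24 ± 0.196 (95% interval -0.18 to 0.66, adjusted p = 0.696). Only 2.72% of all genes had an LPS difference as low in +/- cells, and 1.61% in -/- cells.

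Hdac4 was lower with LPS in both genotypes, but was called in the +/- cells only. The probe set used read 6.83, 6.84 and 6.79 in LPS-treated and 7.32, 7.77 and 6.96 in untreated -/- arrays, and 6.32, 6.37 and 6.51 in LPS-treated and 7.16, 6.94 and 7.07 in untreated +/- arrays. LPS-treated and untreated arrays did not overlap in either genotype. The differences were -0.53 ± 0.172 (adjusted p = 0.0753) in -/- and -0.66 ± 0.172 (adjusted p = 0.0128 by limma) in +/- cells, and they differed by 0.12 ± 0.244 (adjusted p = 0.888). The other Hdac4 probe set, 10356626, was called in both, at -0.76 ± 0.186 (adjusted p = 0.0255 over all probe sets) in -/- and -0.77 ± 0.186 (adjusted p = 0.00981) in +/- cells. Without the untreated -/- replicate 3 array the probe set used was called in -/- cells too (-0.73, adjusted p = 0.0149). The Hdac4 call in +/- cells was lost after quantile normalization (-0.45, adjusted p = 0.083) and cyclic loess (-0.47, adjusted p = 0.0724), and without both +/- replicate 1 arrays (-0.56, adjusted p = 0.0837).

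Hdac7 and Hdac9 were called in no comparison. Hdac7, which is known from thymocytes and vessels, had 6.51, 6.35 and 6.39 in LPS-treated and 6.52, 6.26 and 6.61 in untreated -/- arrays, and 5.50, 6.17 and 6.16 in LPS-treated and 5.89, 6.41 and 6.14 in untreated +/- arrays. After LPS all -/- arrays lay above the +/- arrays (0.47 ± 0.191, adjusted p = 0.116 by limma), and the +/- replicate 1 arrays were the lowest in both +/- groups. Without the LPS-treated +/- replicate 1 array this difference of Hdac7 was 0.25 and not called. Hdac9, which represses MEF2 targets in muscle, had 7.36, 8.30 and 6.90 in LPS-treated and 6.67, 8.05 and 6.14 in untreated -/- arrays, against 7.66, 8.75 and 8.75 in LPS-treated and 8.19, 7.44 and 7.94 in untreated +/- arrays. Its groups overlapped in all 4 comparisons. Its SD within groups, 0.711, was larger than that of 99.1% of genes (median 0.202). Replicate 2 was highest in -/- cells and replicate 3 lowest both with and without LPS. The -/- minus +/- differences of Hdac9 were -0.86 ± 0.459 after LPS and -0.91 ± 0.459 untreated (95% intervals -1.85 to 0.12 and -1.89 to 0.08).

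Both class IIb genes fell with LPS in +/- cells. Hdac6 read 6.55, 6.57 and 6.87 in LPS-treated and 7.07, 7.04 and 7.03 in untreated -/- arrays, and 7.04, 6.47 and 6.88 in LPS-treated and 7.82, 7.36 and 7.69 in untreated +/- arrays. Untreated +/- cells were the highest group and overlapped no other. Hdac6 fell by 0.83 with LPS in +/- cells (SE 0.169, 1.77-fold, adjusted p = 0.0027 by limma). In -/- cells the LPS difference was -0.38 ± 0.169 with no overlap (adjusted p = 0.218), and the responses differed by 0.44 ± 0.239 (adjusted p = 0.522). Before LPS, Hdac6 was 0.58 lower in -/- cells (SE 0.169, 1.49-fold), which was not called (adjusted p = 0.103), and after LPS the genotypes overlapped (-0.13 ± 0.169). Hdac6 is on the X chromosome, and +/- replicate 1 was the highest of its group with and without LPS. Without both of those arrays the untreated genotype difference was -0.48 (adjusted p = 0.248) and the LPS difference in +/- cells was -0.85 (adjusted p = 0.00726).

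Hdac10 read 7.27, 7.04 and 7.21 in LPS-treated and 7.72, 7.64 and 7.53 in untreated -/- arrays, and 7.08, 6.48 and 6.63 in LPS-treated and 7.47, 7.31 and 7.36 in untreated +/- arrays. LPS-treated and untreated arrays did not overlap in either genotype, and the fall of 0.65 in +/- cells was called (SE 0.153, 1.57-fold, adjusted p = 0.00684 by limma). In -/- cells the difference was -0.45 ± 0.153 (adjusted p = 0.0889), and without the LPS-treated +/- replicate 1 array, which alters the shared spread, its adjusted p was 0.032. After LPS the genotypes differed by 0.44 ± 0.153 (adjusted p = 0.067), with 1 +/- array, replicate 1, inside the range of the -/- arrays. Without that array Hdac10 was called higher in -/- cells after LPS (0.62, adjusted p = 0.00818), and over all alternatives the adjusted p ran between 0.00818 and 0.221.

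Hdac11, known in macrophages as a negative regulator of Il10, had a signal near or below the array median. It read 4.74, 4.59 and 4.55 in LPS-treated and 4.56, 4.76 and 4.50 in untreated -/- arrays, and 4.68, 5.41 and 4.61 in LPS-treated and 4.76, 4.54 and 4.17 in untreated +/- arrays. It exceeded the array median on 1 of 12 arrays, the LPS-treated +/- replicate 2 array, while the other 9 genes did so on all 12. All groups of Hdac11 overlapped and none of its differences was called.

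**Figure D3:**
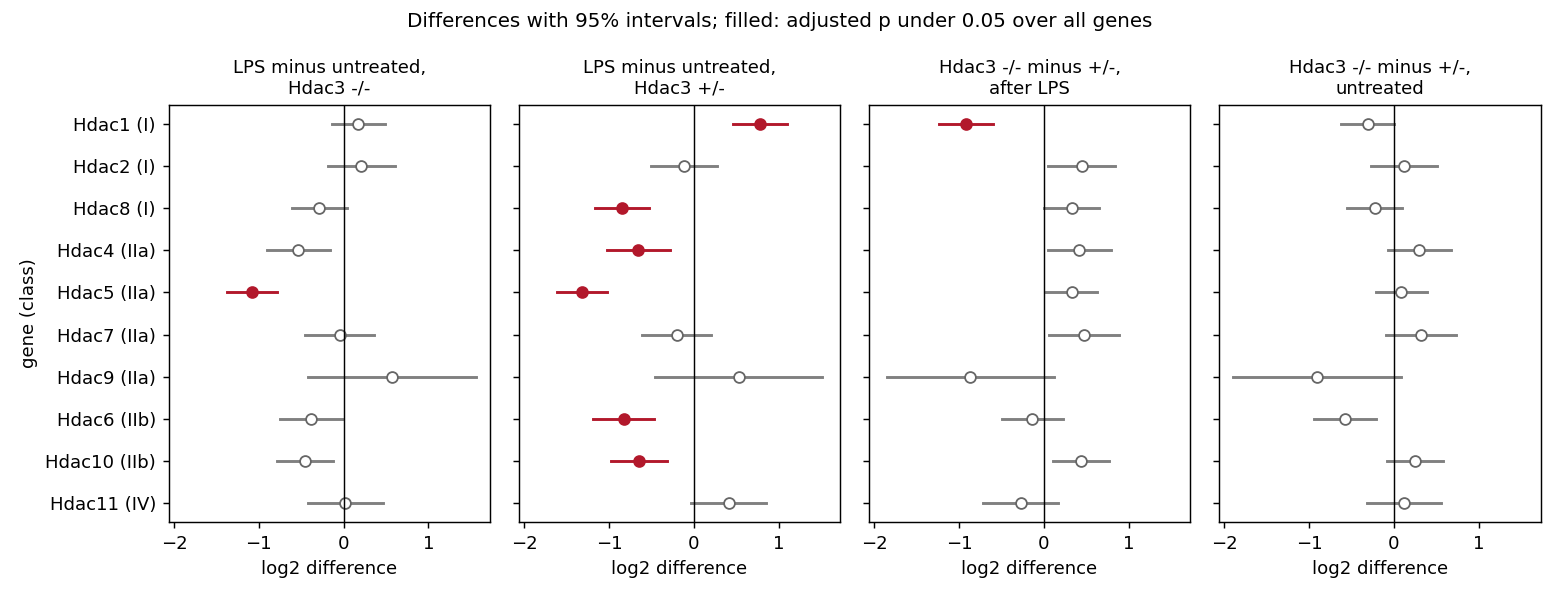
Log2 differences of the 10 genes (rows, class in brackets) for LPS minus untreated in -/- and in +/- cells and for -/- minus +/- cells after LPS and untreated, with 95% intervals (lines). Filled points passed an adjusted p of 0.05 over all genes: Hdac5 in -/- cells, 6 genes in +/- cells, and Hdac1 between the genotypes after LPS.

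Between the genotypes, the family apart from Hdac1 showed no called change. In untreated cells limma called 0 of the 10 genes, where 2.66% of all genes were called (1.22% higher and 1.44% lower), and 1 gene, Hdac6, had an unadjusted p under 0.05, against 12.7% of all genes. A linear model per gene without moderation also called 0, and limma with array weights called Hdac6. The untreated -/- and +/- arrays did not overlap for 3 of the 10 genes (Hdac1, Hdac6 and Hdac10), against 18.0% of all genes. After LPS, 6 of the 10 genes were higher in -/- cells with an unadjusted p under 0.05 (Hdac2, Hdac8, Hdac4, Hdac5, Hdac7 and Hdac10), none of them called, where 16.8% of all genes were higher at that p. Hdac1 was lower, so that 7 of the 10 had such a p in either direction, against 28.9% of all genes. The -/- and +/- arrays did not overlap for 6 of the 10 genes after LPS, against 31.8% of all genes. Of these, Hdac2, Hdac8, Hdac4, Hdac5 and Hdac7 were higher in -/- cells and Hdac1 was lower, while Hdac10 overlapped. The median difference was 0.33 after LPS and 0.10 untreated, against -0.04 and 0.01 over all genes. The shares and medians of all genes in these comparisons include dim genes, while 9 of the 10 members pass the dim filter. Shares by unadjusted p and by overlap were not counted with dim genes left out.

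The interaction test asked directly whether the LPS responses differed between the genotypes. Limma called 0 of the 10 genes, against 1.08% of all genes (0.306% higher and 0.777% lower), and 2 (Hdac1 and Hdac8) had an unadjusted p under 0.05, against 11.4% of all genes. The unmoderated model called 0 too. The response in -/- cells was above that in +/- cells for 8 of the 10 genes, and the share of all genes with that sign was not counted. The median difference of responses was 0.17 over the 10 genes, against -0.02 over all genes. For Hdac4, Hdac7 and Hdac9 the sign turned in some alternatives, for Hdac9 in 9 of 26. Calls in +/- cells alone therefore do not show that -/- cells responded differently. Both genotype comparisons share arrays with both LPS comparisons, so their values are given side by side only.

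The sequences just before the start sites of 4 of the 5 genes that fell with LPS in +/- cells are shown. Among the 4, Hdac8 differs from the others in base composition. Of the 10 genes, 8 had a window in a RefSeq promoter table (GRCm38.p6), and Hdac10, the other gene that fell, had none. Each sequence gives the 150 bases upstream of the start, 5′ to 3′ on the gene's strand. Capitals mark GC boxes, the letters GGGCGG or their reverse complement.
Hdac5 (chr11:102230173-102230322, minus strand): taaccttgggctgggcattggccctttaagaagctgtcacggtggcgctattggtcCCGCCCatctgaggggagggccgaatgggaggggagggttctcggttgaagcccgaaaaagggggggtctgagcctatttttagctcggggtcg
Hdac4 (chr1:92180342-92180491, minus strand): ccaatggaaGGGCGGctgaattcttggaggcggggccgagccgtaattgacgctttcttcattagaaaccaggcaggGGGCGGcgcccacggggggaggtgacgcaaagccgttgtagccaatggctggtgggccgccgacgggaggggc
Hdac6 (chrX:7947890-7948039, minus strand): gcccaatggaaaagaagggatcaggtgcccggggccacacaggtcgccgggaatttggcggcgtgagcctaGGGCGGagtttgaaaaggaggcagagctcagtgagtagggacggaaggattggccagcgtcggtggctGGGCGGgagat
Hdac8 (chrX:102505159-102505308, minus strand): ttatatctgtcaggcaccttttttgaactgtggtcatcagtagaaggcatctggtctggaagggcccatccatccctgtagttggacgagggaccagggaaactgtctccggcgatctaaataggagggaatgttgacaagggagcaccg
Over 250 upstream bases, GC boxes (overlapping matches counted, both strands) numbered 1 for Hdac5, 4 for Hdac4, 4 for Hdac6 and 0 for Hdac8, and 32.7% of all 32851 windows in the table held at least 1. The GC content was 60.8% for Hdac5, 65.2% for Hdac4, 61.2% for Hdac6 and 48.4% for Hdac8, against a median of 52.4% over all windows searched. In genes not called it was 68.8% for Hdac2 and 65.2% for Hdac11. Windows of Hdac7 had 56.4% to 74.0%, and those of Hdac9 had 43.6% and 44.4%. An AP-1 core (TGANTCA, both strands) was found in none of the 4 windows shown, and 6.75% of all windows searched held it. A match or its absence describes only these letters.

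The proteins that work with these enzymes were read from lists of partners. Over all genes, 9.59% were called higher and 15.5% lower with LPS in +/- cells, and 3.69% and 5.18% in -/- cells. After LPS, 9.69% were higher and 5.99% lower in -/- than in +/- cells. Of 14 Sin3 complex genes, 1 rose and 5 fell with LPS in +/- cells, with a median of -0.45. The rising gene was Sap30 (1.81 ± 0.166, adjusted p = 4.13e-06 by limma), a stabilising subunit, and it rose in -/- cells too (1.22, adjusted p = 0.00031). The scaffold Sin3a fell by 1.45 and Ing2, a reader of methylated histone H3, by 1.29 in +/- cells. In -/- cells Ing2 fell by 0.60, while Sin3a, at -0.54, was not called. After LPS Ing1 (0.56) was higher and Arid4a (-1.02) and Arid4b (-0.58) were lower in -/- than in +/- cells. Of 9 NuRD genes 5 fell and 1 rose in +/- cells, among them Mta1 (-0.73) and the remodeller Chd3 (-0.72), and Chd3 alone was called in -/- cells (-0.54). After LPS Mta1 (0.50) was higher and Gatad2a (-0.51) and Mbd2 (-0.47) were lower in -/- than in +/- cells. Of 6 measured CoREST genes Rcor3 fell by 0.97 in +/- cells, and it was 0.74 higher in -/- than in +/- cells after LPS. Mideas, the scaffold of the MiDAC complex, fell by 0.64 in +/- cells and was 0.55 higher in -/- than in +/- cells after LPS. Of 3 measured NCoR complex genes, partners of Hdac3, Tbl1xr1 fell by 1.44 and Gps2 by 0.61 with LPS in +/- cells, and Tbl1xr1 fell by 0.99 in -/- cells. All 3 were higher in -/- than in +/- cells after LPS: Tbl1x by 0.71, Gps2 by 0.65 and Tbl1xr1 by 0.53.

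Of 23 measured partners and kinases of class IIa enzymes, 2 rose and 9 fell with LPS in +/- cells, and 5 fell in -/- cells. After LPS 4 were higher and 3 lower in -/- than in +/- cells, and 2 were lower untreated. The shares over all genes were 9.59% higher and 15.5% lower with LPS in +/- cells, and 5.18% lower in -/- cells. Between the genotypes they were 9.69% higher and 5.99% lower after LPS, and 1.44% lower untreated. The transcription factor Mef2c had mean log2 signals of 5.57 in LPS-treated and 7.37 in untreated -/- cells, against 7.06 in LPS-treated and 8.87 in untreated +/- cells. Mef2c was lower in -/- cells, with a difference of -1.48 ± 0.173 after LPS (adjusted p = 7.05e-05 by limma) and -1.5009 ± 0.173 untreated (adjusted p = 0.00021). Its LPS differences were -1.79 in -/- and -1.81 in +/- cells, both called. Mef2d behaved otherwise, at 8.71 in LPS-treated and 8.60 in untreated -/- cells and 7.45 in LPS-treated and 8.26 in untreated +/- cells. After LPS Mef2d was 1.26 higher in -/- cells (SE 0.152, adjusted p = 9.9e-05).

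The interaction was called for 2 of the 23 class IIa partners, against 1.08% of all genes. Camk2g, a calcium- and calmodulin-dependent kinase, fell by 0.70 in -/- and 1.74 in +/- cells, a difference of 1.04 ± 0.194 (adjusted p = 0.0197 by limma). Sik3, a salt-inducible kinase that phosphorylates class IIa enzymes, rose by 1.02 in +/- cells and was at 0.10 in -/- cells, a difference of -0.91 ± 0.176 (adjusted p = 0.0241).

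**Figure D4:**
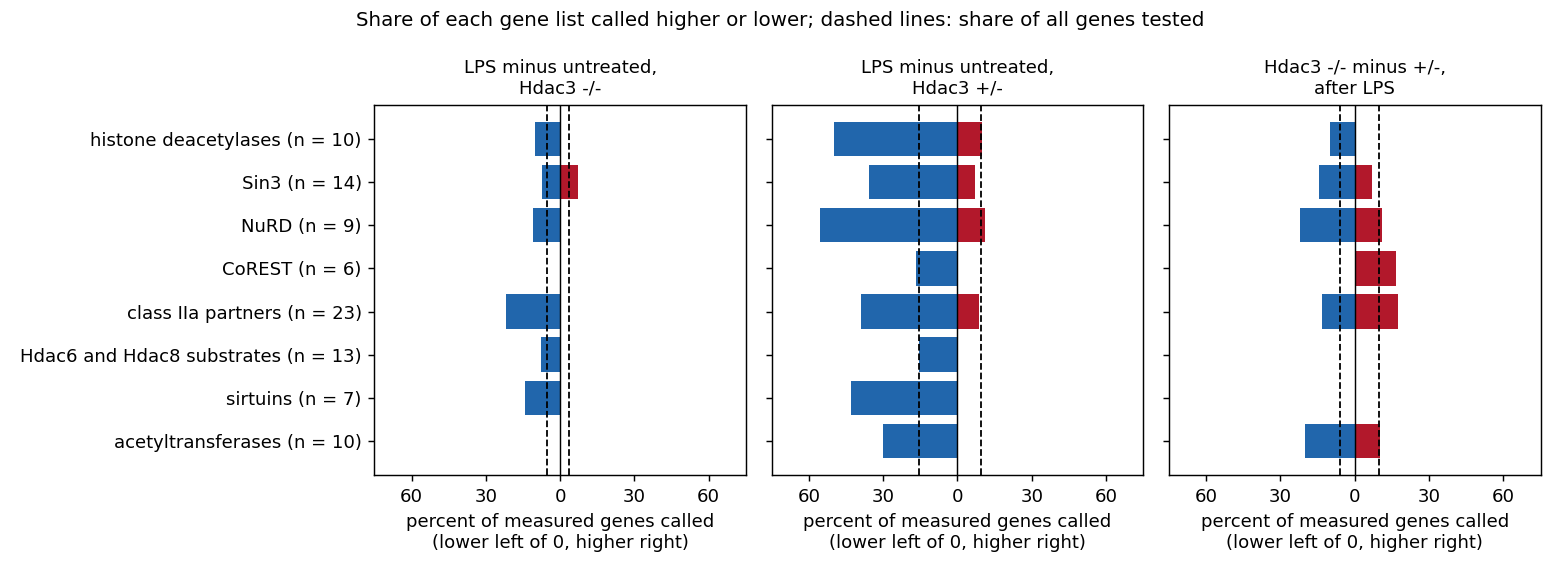
Percent of the measured genes of each list (rows, with their number) called lower (left of 0) or higher (right of 0) for LPS minus untreated in -/- cells, LPS minus untreated in +/- cells and -/- minus +/- cells after LPS. Dashed lines are the share of all 19945 genes called in that direction, 15.5% lower and 9.59% higher with LPS in +/- cells.

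Other enzymes of lysine acetylation were lower with LPS in +/- cells where they were called. Over all genes, 15.5% were called lower in +/- cells and 5.18% in -/- cells. Of the 7 sirtuins, the NAD-dependent deacetylases, Sirt7 (-0.69), Sirt1 (-0.59) and Sirt3 (-0.58) fell and none rose. Sirt3, the mitochondrial enzyme, was the only sirtuin called in -/- cells (-0.77 ± 0.175, adjusted p = 0.0127 by limma). Of 10 acetyltransferases Kat6b (-1.25), Kat7 (-0.72) and Kat8 (-0.56) fell in +/- cells and none was called in -/- cells. After LPS Kat2b (-1.46) and Kat6a (-0.90) were lower and Kat6b (0.95) was higher in -/- than in +/- cells. Of 13 measured Hdac6 and Hdac8 substrates and opposing enzymes 2 fell in +/- cells, Smc3 and the cohesin acetyltransferase Esco2 (-2.02). That share of 15.4% was near the 15.5% of all genes called lower. The tubulin acetyltransferase Atat1 was not called.

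For each called member, the 3 genes of 19945 with the most similar profile over the 12 arrays were listed by Pearson's r, as a description over arrays that share their 4 groups. Those most like Hdac1 were Tmem219 (r = 0.98), Nmi (0.97), an interferon-induced gene, and G530011O06Rik (0.97). Those most like Hdac5 were Tpra1 (0.99), Slc43a2 (0.98) and Klhl6 (0.98), and those most like Hdac8 were the arginyltransferase gene Ate1 (0.98), Ppwd1 (0.97) and the Sin3 subunit gene Ing2 (0.96). For Hdac4 they were Scrib (0.95), Bcl7a (0.95) and Lonrf3 (0.94), for Hdac6 Knstrn (0.95), Wls (0.95) and Sympk (0.94), and for Hdac10 Cdkn2aipnl (0.98), Ttll1 (0.97) and Zfp715 (0.97).

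Cell type markers were read beside these results. Over all genes, 9.59% were called higher with LPS in +/- cells. Of 6 eosinophil markers 3 rose with LPS in +/- cells and none was called in -/- cells. Their summed linear signal was 145 to 180 in LPS-treated and 125 to 135 in untreated -/- arrays, and 231 to 409 in LPS-treated and 139 to 190 in untreated +/- arrays. None of 8 neutrophil markers was called, and their sum was 521 to 1336 in LPS-treated and 173 to 429 in untreated -/- arrays, and 208 to 905 in LPS-treated and 185 to 232 in untreated +/- arrays. With LPS in +/- cells, 2 of 7 dendritic cell markers and 1 each of 7 T and NK cell, 5 B cell and 6 fibroblast markers rose, and none of 7 mast cell and basophil or 4 erythroid and megakaryocyte markers was called in any comparison. Between the genotypes, Ccr3 (eosinophil, -2.17), Dcn (fibroblast, -0.71) and Xcr1 (dendritic cell, -0.70) were lower in -/- than in +/- cells after LPS, and Cd79b (B cell, -0.60) was lower untreated. Many of these signals were dim. No dendritic cell marker lay above the array median on all 3 arrays of any group. Of 5 B cell markers 1 did so, in untreated +/- cells only. Of 6 eosinophil markers 3 did so in LPS-treated +/- cells.

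Among 5 osteoclast markers, Ctsk was higher in -/- than in +/- cells by 2.89 ± 0.599 after LPS (adjusted p = 0.00514 by limma) and by 2.44 ± 0.599 untreated (adjusted p = 0.0467), and Acp5 rose by 1.21 with LPS in -/- cells. The osteoclast sum was 617 to 1747 in LPS-treated and 397 to 1014 in untreated -/- arrays, and 472 to 662 in LPS-treated and 256 to 527 in untreated +/- arrays. Of the 8 macrophage markers, 2 rose (Fcgr1, 1.13, and Cd14, 1.11) and 3 fell (Mertk, -2.01, Csf1r, -0.60, and Itgam, -0.37) with LPS in +/- cells. With LPS in -/- cells Cd14 rose by 1.42 and Mertk fell by 2.61. Fcgr1, an Fc receptor gene, was lower in -/- than in +/- cells, with differences of -2.41 ± 0.188 after LPS and -1.45 ± 0.188 untreated. The macrophage sum, which the brightest markers dominate, was 31600 to 34250 in LPS-treated and 32200 to 35920 in untreated -/- arrays, and 33200 to 33910 in LPS-treated and 34390 to 37010 in untreated +/- arrays. The part of other cells, or of these marker changes, in the results was not tested.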

How the data were processed

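Gene expression was measured on Affymetrix arrays in 12 cultures, 3 in each of 4 groups taken from the sample titles. The deposited table holds log2 signals for 28193 probe sets, which the authors made by RMA (the submitters' processing notes name RMA and affy, without versions). Chip description file and genome build: not given in the sources used here. RMA puts all arrays on a common scale, so shifts shared by most genes would be removed. In the platform annotation 21648 probe sets carry a single symbol. Those with several (1313) or no symbol (5232) were not tested as genes. Symbols were set against RefSeq by Entrez identifier for 21561, and 0 changed. Where a gene had several probe sets (954 genes), that of the highest mean was taken, giving 19945 genes.

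A limma 3.58.1 model (R 4.3.3) with 4 group means was fitted to all 12 arrays with eBayes, and 5 contrasts were adjusted by Benjamini-Hochberg over all genes, with a threshold of 0.05. Tables and figures used Python 3.11.15, pandas 2.3.3 and matplotlib 3.10.9. The fit was tested on simulated data. Alternatives changed the variance prior, array weights, scaling, dim-gene filter, probe set choice, arrays in the fit, replicate blocks and an Xist covariate, and left out each array in turn. Members, lists and the rule for named genes were chosen with earlier results of these data known. The rule named every member, Hdac3, up to 3 called genes per list with the largest change, and the 3 most similar genes. Mef2d in both genotypes, Atat1, Sin3a in -/- cells and the called cell type markers were added after their values were seen. Some list entries were not analysed here.

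Replicate numbers were checked as pairs by correlating deviations from group means across genes. In Hdac3 +/- cells the same-numbered LPS-treated and untreated arrays correlated at 0.22 to 0.33, and replicate 1 had low Xist in both, so the numbers were taken as pairs there. In -/- cells they correlated at -0.12 to 0.20, and arrays of different genotype and number reached 0.51.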

Additional observations from a re-analysis of the deposited data

How the results depend on the processing

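Over 27 alternatives, 1266 of 1315 values of single histone deacetylase genes kept their direction and their side of the threshold, 3 lost a call, 18 gained one and 28 changed sign, none of these called in the full model. Among the scalings run, the largest shift of the median of all genes was -0.08 (median centred, LPS in +/- cells). With array weights, 5 of the 10 genes were called for LPS in -/- cells (4424 of all genes). Between untreated genotypes the weights called 1, Hdac6 (1186 of all genes). Between genotypes after LPS they called 3 (Hdac1, Hdac2 and Hdac10), and 4440 of all genes in place of 3127. In the interaction they called 0 of the 10 and 592 of all genes. Without moderation, the counts of all genes were 1130 for LPS in -/- cells, 276 between untreated genotypes and 86 in the interaction, and with only the 2 groups compared 321 between untreated genotypes. For LPS in -/- cells 2 of the 10 genes were called under 4 further settings. These were the mean of probe sets, the lowest-mean probe set (chosen after seeing the data), the Xist covariate and only the 2 groups compared. All-gene counts were 1778, 1742, 1886 and 2365 in the same order, against 1769 in the full model. Between genotypes after LPS, 2 were called with the Xist covariate, or with a replicate block over all arrays (Hdac10, adjusted p = 0.0495 by limma). All-gene counts there were 3337 with the covariate and 2959 with the block, against 3127 in the full model. With the block within genotype, 6 genes were called for LPS in +/- cells, 1 in -/- cells and 0 in the interaction, and no other call changed. All-gene counts with that block were 5478, 2264 and 312 in the same order.

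Leaving out arrays (including, chosen after seeing the data, both +/- replicate 1 arrays together), 1 to 2 of the 10 genes were called for LPS in -/- cells, 5 to 6 in +/- cells, and 1 to 2 between genotypes after LPS. All-gene counts for LPS in +/- cells were 3636 (without untreated +/- replicate 3) to 5983 (without LPS-treated +/- replicate 1). For LPS in -/- cells they were 1129 (without LPS-treated -/- replicate 1) to 1941. Between the genotypes they were 1685 (without LPS-treated -/- replicate 3) to 3495 after LPS, and 266 (without untreated -/- replicate 1) to 606 untreated. In the interaction they were 97 (without untreated -/- replicate 1) to 349 (without LPS-treated +/- replicate 1).

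Signs turned for LPS in +/- cells for Hdac2 (0.086 with cyclic loess, -0.28 to 0.047 leaving out arrays) and Hdac7 (-0.33 to 0.023), and in -/- cells for Hdac7 (-0.15 to 0.024) and Hdac11 (-0.038 median centred, -0.055 with quantile normalization, -0.047 with cyclic loess, -0.033 to 0.098 leaving out arrays). Between untreated genotypes they turned for Hdac2 (-0.037 to 0.28), Hdac5 (-0.010 to 0.18) and Hdac11 (-0.042 to 0.26). In the interaction they turned for Hdac4 (-0.027 with quantile normalization, -0.075 to 0.33 leaving out arrays), Hdac7 (-0.070 to 0.28) and Hdac9 (-0.0095 with quantile normalization, -0.083 with cyclic loess, -0.49 to 0.59 leaving out arrays). The causes were not tested. Hdac11 is limited by a signal near the array median or below it.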
